A study of Mus musculus with 18 samples.

Results

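The transcripts of 9 matrix and stromal surface genes were followed in MC3T3-E1 cells, a preosteoblast line from mouse calvaria, during osteogenic differentiation. The genes were taken by symbol from a count table of 40620 rows: Lrrc15 (ENSMUSG00000052316), Cd248 (ENSMUSG00000056481), Ccdc80 (ENSMUSG00000022665), Abi3bp (ENSMUSG00000035258), Efemp2 (ENSMUSG00000024909), P3h2 (ENSMUSG00000038168), Col8a1 (ENSMUSG00000068196), Col4a1 (ENSMUSG00000031502) and Col4a2 (ENSMUSG00000031503). All 9 had a row and all 9 passed the filter on low counts. The cells stably carried shRcor2-18 or shRcor2-20, lentiviral hairpins against the corepressor Rcor2, or the control hairpin shScramble; the labels do not say whether these were clones or pools. For every construct there were 2 samples at 0h, 2 at 24h and 2 at 7d, which makes 9 groups and 18 libraries. Sample 1 of each construct at 0h was left out by the rule that defined the set, and 15 libraries remained: 1 per construct at 0h and 2 per construct at 24h and at 7d. The differentiation medium held dexamethasone, ascorbic acid and beta-glycerophosphate on top of a serum-containing growth medium. All groups share the parent line and stable hairpin expression, and the labels call the hairpin samples a knockdown and the shScramble samples wild type. The titles give the times used here, whereas the protocol names harvests at confluence, 24 hours, 14 days and 21 days. The labels leave out whether the 2 samples of a group came from separate cultures; the spread behind each p-value is that between samples and may be technical in part.

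The extracellular matrix of bone-forming cells is laid down mostly as collagen, which is hydroxylated in the endoplasmic reticulum, secreted and then cross-linked, with ascorbic acid as a cofactor of the hydroxylases. Around fibrillar collagen lie elastic fibres, basement membrane networks and many secreted glycoproteins, and stromal cells bear surface proteins that are used to recognise them in tissue. Type IV collagen forms the sheet-like network of basement membranes, and its Col4a1 and Col4a2 chains are joined in 1 trimer and encoded head to head. Dexamethasone acts through the glucocorticoid receptor and alters the transcription of many genes in cells of this lineage.

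Row names and reads were not in register over most of the count table, and this was examined first. Of 657 genes used by nearly every cell that lie outside the stretches used here, 152 (23.1%) reached a mean of 20 CPM (a row's counts scaled to a fixed library total), and their median was 0.6 CPM. In stretches at the starts of chromosomes 16, 19 and 8, the same kind of genes reached it in 37 of 40, 13 of 13 and 2 of 2 cases. The ends of the stretches were chosen with earlier results of these data known, so these shares are not an independent check. All 9 genes lie in these stretches: Lrrc15, Ccdc80, P3h2, Col8a1 and Abi3bp on chromosome 16, Efemp2 and Cd248 on chromosome 19, and Col4a1 and Col4a2 on chromosome 8, where only 2 genes could be used for the check. Among the 15 coding rows on each side of Col8a1, Col4a1 and Col4a2 there was no such gene. The names of these rows could therefore not be checked close by. The Rcor2 row lies outside them, with 904 to 1016 counts in the shRcor2-18 libraries and 847 to 1038 in the shRcor2-20 libraries, against 707 to 1487 in the shScramble libraries, and it cannot serve as a check of the knockdown. None of 19 osteoblast markers lies in the stretches, so the cell type could not be checked by them. Of the marker lists for other cell types, the 2 adipocyte markers in the stretches summed to at most 0.743 CPM in any library, with Adipoq and Retn near 0, and the single endothelial marker, Cldn5, was at 0 counts. The single skeletal muscle marker, Actn3, had 1.73 to 8.69 CPM at 0h, 52.6 to 101 CPM at 24h and 103 to 143 CPM at 7d. The 7 leukocyte markers summed to 156 to 201 CPM at 0h, 168 to 199 CPM at 24h and 205 to 291 CPM at 7d, with Cd86, Cd200r1, Stfa1 and Stfa2 at 0 counts and nearly all of the sum from Cd80 and Btla. Btla, an inhibitory receptor of lymphocytes, had 1.54 to 3.71 CPM at 0h, 2.94 to 11.1 CPM at 24h and 18.1 to 65.9 CPM at 7d, and rose for 7d against 0h (log2 fold change 4.08 ± 0.71, edgeR adjusted p = 0.0155) and for 7d against 24h (2.51 ± 0.48, adjusted p = 0.0403). Actn3 rose for 7d against 0h (4.67 ± 0.35, adjusted p = 0.00046) and for 24h against 0h (4.03 ± 0.34, adjusted p = 0.00135), and Cd80 passed in no comparison of times. Whether cells of these types were present at all, or had a part in the time changes below, was not tested. The 15 libraries held 3504808 to 6139315 counts each.

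Levels of the 9 genes spanned more than 2 orders of magnitude when set per length (CPM per kilobase of exon). At 0h, Efemp2 was highest, at 976 ± 135 CPM per kilobase (SD, n = 3), followed by Col4a1 at 414 ± 48.5, Ccdc80 at 362 ± 9.14 and Col4a2 at 340 ± 14.2. Libraries of Col4a1 and Ccdc80 overlapped, as did those of Ccdc80 and Col4a2, so the order of these neighbours is not resolved. Cd248 followed at 239 ± 19.2, Col8a1 at 91.4 ± 13.7 and P3h2 at 54.2 ± 18.5 CPM per kilobase. Lrrc15, at 11.2 ± 5.27, and Abi3bp, at 8.36 ± 3.30, were lowest and overlapped each other. At 7d, Efemp2 was still highest, at 543 ± 51.4 CPM per kilobase (SD, n = 6), with no library in the range of the next gene. Col4a1 at 307 ± 44.9, Col4a2 at 289 ± 35.7, Cd248 at 261 ± 63.6, Col8a1 at 196 ± 37.5 and Ccdc80 at 147 ± 42.1 formed a run in which each gene overlapped the next. P3h2 at 11.6 ± 4.68 overlapped Abi3bp at 11.5 ± 3.70, and Lrrc15 was lowest of all at 1.99 ± 0.485, with no library in the range of Abi3bp.

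**Figure D1:**
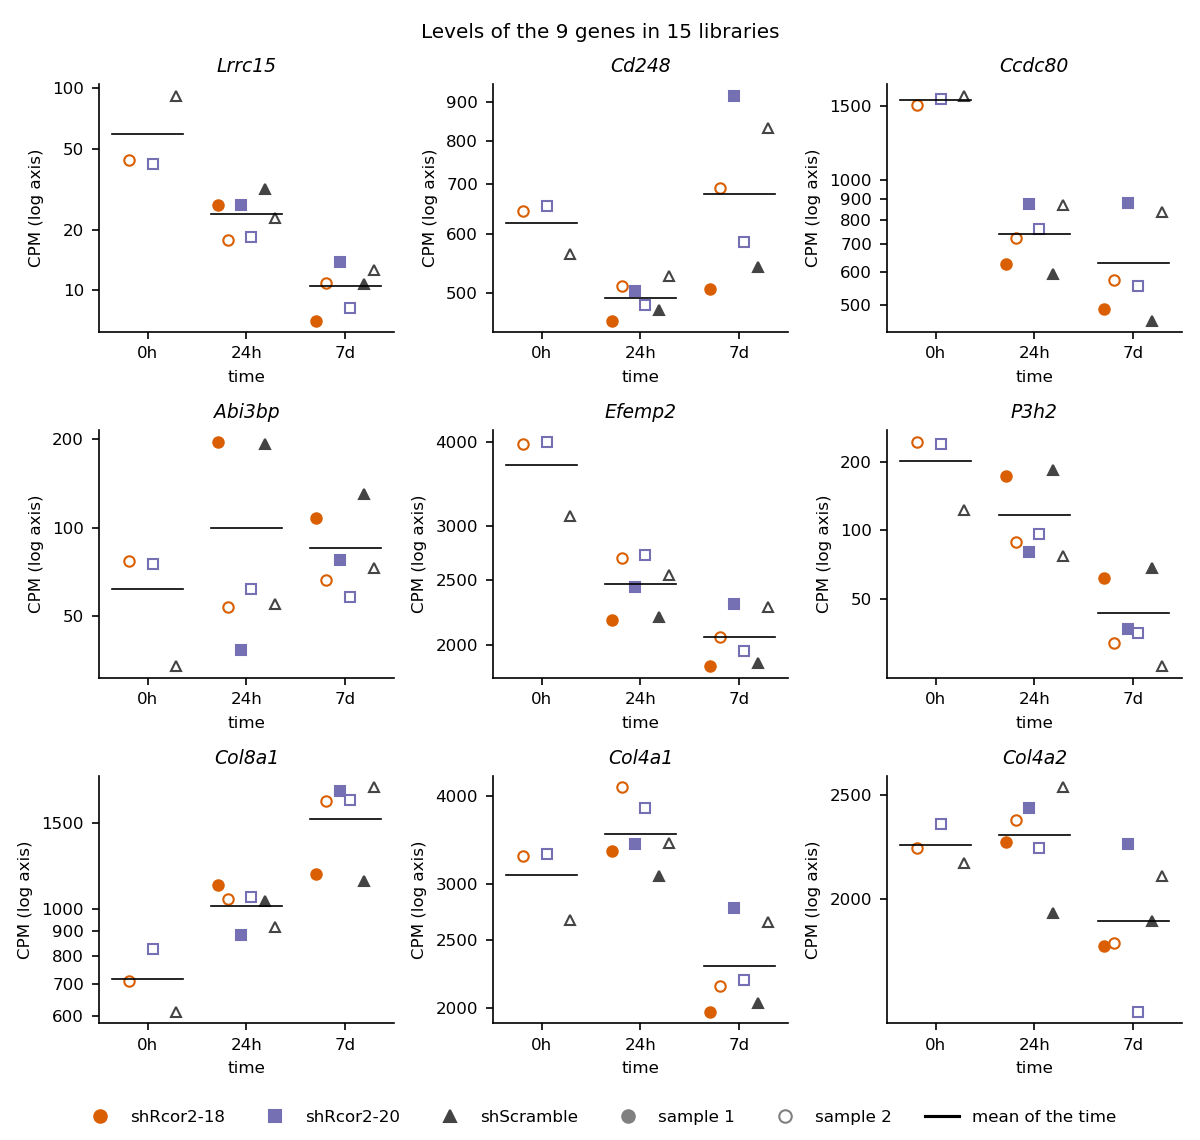
Level of each gene in CPM (log axis, a range of its own in each panel) at 0h, 24h and 7d. Points are single libraries, coloured by construct and filled for sample 1, and bars are means over the libraries of a time. The means of Lrrc15 and P3h2 step down over the times and that of Col8a1 steps up, while the 3 constructs lie among each other at 24h and 7d. The 0h and 24h libraries of P3h2 overlap.

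The first comparisons asked how the genes changed with differentiation, as means over the 3 constructs. By 7d, Lrrc15, P3h2, Ccdc80 and Efemp2 were 1.79 to 5.30 times lower than at 0h, and Col8a1 was 2.15 times higher. With edgeR's quasi-likelihood test and Benjamini-Hochberg adjustment over all 12930 rows, at a threshold of 0.05, these 4 genes fell and 1 rose among the 9, where 2.49% of all rows fell and 3.27% rose (5.76% in either direction). This main fit took no account of sample number. With sample number within construct as a replicate block, the 4 falls still passed and the rise of Col8a1 did not (edgeR adjusted p = 0.0509). The median log2 fold change of the 9 genes was -0.43, against 0.07 over all rows. For 24h against 0h, 1 gene fell and none rose, where 0.387% of all rows fell and 1.47% rose (1.86% in either direction), with a median of -0.33 for the 9 genes and 0.06 for all rows. For 7d against 24h, 2 genes fell and none rose, where 1.18% of all rows fell and 1.15% rose (2.34% in either direction), with medians of -0.26 and -0.02. The same test on the 546 rows of the checked stretches alone called 1 gene higher and 5 lower for 7d against 0h, where 13.2% of these rows were higher and 13.6% lower (26.7% together). It called none higher and 3 lower for 24h against 0h (2.56% and 3.3% of rows, 5.86% together), and 2 higher and 4 lower for 7d against 24h (9.16% and 7.51% of rows, 16.7% together). The 3 left-out libraries of 0h stood apart, with 21.9% to 22.5% of their counts in the checked stretches, against 13.4% to 14.5% in the 15 used libraries. With all 18 libraries, the 5 genes still passed for 7d against 0h, with log2 fold changes of -3.87 for Lrrc15, -2.44 for P3h2, -1.64 for Ccdc80, -0.84 for Efemp2 and 0.78 for Col8a1. The call of Efemp2 for 24h against 0h remained as well (adjusted p = 0.0291), and both calls for 7d against 24h, Lrrc15 and Col4a1, were lost (adjusted p = 0.577 and 0.101). Comparisons that share a time share its libraries. In bulk RNA, fewer cells of a type and less RNA per cell cannot be told apart.

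Lrrc15, a membrane protein with leucine-rich repeats that marks stromal fibroblasts, was lower at each later time. It was at 44.4, 42.5 and 92.0 CPM in the 0h libraries of shRcor2-18, shRcor2-20 and shScramble. The lowest, median and highest of the 6 libraries were 17.7, 24.7 and 31.8 CPM at 24h, and 7.09, 10.8 and 13.9 CPM at 7d. No library of a time reached the range of another time, and the shScramble library at 0h stood above both hairpin libraries. For 7d against 0h, Lrrc15 fell to 10.6 ± 2.57 CPM (SD, n = 6) at 7d, against 59.6 ± 28.0 CPM (n = 3) at 0h, a log2 fold change of -2.41 ± 0.25 (SE; edgeR adjusted p = 0.00176). It fell for 7d against 24h as well, by a log2 fold change of -1.18 ± 0.22 (adjusted p = 0.0375). That call was lost when sample number within construct was a replicate block (adjusted p = 0.0766) and without any 1 of 10 of the 15 libraries (adjusted p = 0.0555 to 0.101), namely all at 24h and 7d other than shRcor2-18 24h sample 2 and shRcor2-20 7d sample 1. For 24h against 0h the log2 fold change was -1.23 ± 0.25 (adjusted p = 0.0576, 0.0106 within the checked stretches, and 0.0292 with no filter on low counts). With all 18 libraries that fold change was -2.71 (adjusted p = 0.0295). The decrease had the same direction in each construct, with log2 differences between 7d and 0h of -2.28 in shRcor2-18, -1.95 in shRcor2-20 and -2.93 in shScramble. The difference between these values was not tested. The promoters of Lrrc15 and of Col8a1, the only gene of the set called higher in the main fit, are shown for comparison. They run from 250 bases before to 50 after the start (RefSeq, GRCm38.p6), at chr16:30283205-30283504 and chr16:57754688-57754987, both minus strand. Capitals mark TGANTCA, the AP-1 motif, and GGGCGG, the Sp family motif, on either strand.
Lrrc15: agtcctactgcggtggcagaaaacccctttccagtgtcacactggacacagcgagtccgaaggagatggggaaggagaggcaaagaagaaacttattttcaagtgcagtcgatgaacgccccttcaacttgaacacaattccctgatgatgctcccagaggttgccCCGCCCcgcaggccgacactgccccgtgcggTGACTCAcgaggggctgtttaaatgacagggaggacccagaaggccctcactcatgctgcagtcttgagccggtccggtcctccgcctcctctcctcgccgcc
Col8a1: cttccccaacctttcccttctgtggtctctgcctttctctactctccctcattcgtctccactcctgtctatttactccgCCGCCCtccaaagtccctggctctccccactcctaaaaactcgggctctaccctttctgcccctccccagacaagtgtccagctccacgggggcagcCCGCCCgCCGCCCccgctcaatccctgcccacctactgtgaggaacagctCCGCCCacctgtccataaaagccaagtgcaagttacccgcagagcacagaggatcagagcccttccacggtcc
The Lrrc15 window held 1 TGANTCA match, TGACTCA, 53 bases before the start, and 7.81% of 32851 promoters of this length held one. It also held 1 GGGCGG match, and the Col8a1 window held 4, while 35.7% of all promoters held at least 1. The windows of Efemp2, which fell, held 2, 5 and 7. The windows with 5 and 7 overlap and share matches. A link between matches and the direction of change was not tested. Neither window held TATAAA (13.6% of promoters), TGTTCT, the short site of the glucocorticoid receptor (6233 of 32851), or the full palindromic glucocorticoid response element (0.00913%). Such matches are letters in the sequence and not evidence of binding, and GC content was 58.7% and 60.3%, with a median of 52.7% over all promoters.

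Cd248, or endosialin, a transmembrane glycoprotein of pericytes and stromal fibroblasts, was at 645, 655 and 564 CPM in the 0h libraries of shRcor2-18, shRcor2-20 and shScramble. It had a lowest, median and highest level of 460, 493 and 527 CPM at 24h and of 507, 638 and 918 CPM at 7d. The 24h libraries lay closest together and below all 0h libraries, whereas the 7d libraries were spread over both ranges. The log2 fold change was -0.33 ± 0.19 for 24h against 0h and 0.12 ± 0.19 for 7d against 0h, neither past the threshold (adjusted p = 0.577 and 0.801); with all 18 libraries these were -0.95 and -0.48 (adjusted p = 0.115 and 0.288). Between 7d and 24h it was 0.45 ± 0.15, with an adjusted p of 0.168 over all rows and 0.0365 within the checked stretches.

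Ccdc80, a secreted protein that associates with the matrix, was lower in every 24h and 7d library than in any 0h library. It was at 1510, 1560 and 1590 CPM in the 0h libraries of shRcor2-18, shRcor2-20 and shScramble. The lowest, median and highest levels were 594, 743 and 875 CPM at 24h, and 458, 563 and 879 CPM at 7d. Every 0h library was above every later library, and the 24h and 7d libraries overlapped. Ccdc80 fell to 631 ± 181 CPM (SD, n = 6) at 7d, against 1550 ± 39.2 CPM (n = 3) at 0h, with a log2 fold change of -1.31 ± 0.22 (edgeR adjusted p = 0.0135). At 24h against 0h the log2 fold change was -1.07 ± 0.22, with an adjusted p of 0.0595 over all rows and 0.00618 within the checked stretches. That comparison also passed without shScramble 7d sample 1 or without sample 2 (adjusted p = 0.0361 and 0.0363). The difference between 7d and 24h was -0.24 ± 0.19 on the log2 scale (adjusted p = 0.58).

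Abi3bp, a secreted matrix protein that binds the ABI3 adaptor, varied widely among libraries of the same time. It was at 77.0, 75.3 and 33.8 CPM in the 0h libraries of shRcor2-18, shRcor2-20 and shScramble. At 24h it was at 196 and 53.7 CPM in the shRcor2-18 libraries and 38.3 and 61.9 CPM in the shRcor2-20 libraries, against 193 and 55.1 CPM in the shScramble libraries, in the order of sample 1 and sample 2. The coefficient of variation at 24h was 74.1%, the largest of the set, and 2 libraries, sample 1 of shRcor2-18 and of shScramble, stood apart from the other 4. At 7d its lowest, median and highest levels were 58.3, 75.3 and 130 CPM. No comparison of times passed, with log2 fold changes of 0.66 ± 0.52 for 24h against 0h, 0.54 ± 0.52 for 7d against 0h and -0.12 ± 0.41 for 7d against 24h (edgeR adjusted p = 0.732, 0.64 and 0.959). With the replicate block the values were 0.08, 0.11 and 0.03. Without the shScramble library at 0h the values against 0h were 0.27 at 24h and 0.14 at 7d, and dropping the first 24h library of shScramble or of shRcor2-18 gave 0.27 or 0.26 at 24h.

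Efemp2, or fibulin-4, which is needed for elastic fibre assembly and binds lysyl oxidase, was the most abundant of the 9 per kilobase of exon and was lower at 24h and at 7d than at 0h. It was at 3970, 4010 and 3110 CPM in the 0h libraries of shRcor2-18, shRcor2-20 and shScramble. The lowest, median and highest levels were 2180, 2490 and 2720 CPM at 24h, and 1860, 2010 and 2300 CPM at 7d. All 0h libraries were above all later ones, with the shScramble library lowest among them, and the 24h and 7d ranges overlapped. Efemp2 fell to 2060 ± 195 CPM (SD, n = 6) at 7d, against 3700 ± 510 CPM (n = 3) at 0h, with a log2 fold change of -0.84 ± 0.11 (edgeR adjusted p = 0.0047). It had fallen by 24h too, with a log2 fold change against 0h of -0.58 ± 0.11 and an adjusted p of 0.0444. That call was lost under the replicate block (adjusted p = 0.118) and without any 1 of 13 of the 15 libraries (adjusted p = 0.0519 to 0.154), all but shScramble 0h sample 2 and shRcor2-18 24h sample 2, and the adjusted p within the checked stretches was 0.00618. The value for 7d against 24h was -0.26 ± 0.09, with adjusted p = 0.191 over all rows and 0.0411 within the stretches. The exons of Efemp2 overlap those of Mus81 on the opposite strand by 173 bases, 4.57% of their length, and whether counting used strand is not given in the sources used here.

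P3h2, a prolyl 3-hydroxylase of the endoplasmic reticulum that modifies collagen chains, type IV collagen among them, was lower at 7d than at either earlier time in all libraries. It was at 245, 238 and 123 CPM in the 0h libraries of shRcor2-18, shRcor2-20 and shScramble. At 24h it was at 173 and 89.0 CPM in the shRcor2-18 libraries and 80.5 and 96.4 CPM in the shRcor2-20 libraries, against 184 and 77.1 CPM in the shScramble libraries. At 7d it was at 61.8 and 32.0 CPM in the shRcor2-18 libraries and 36.9 and 35.4 CPM in the shRcor2-20 libraries, against 68.1 and 25.2 CPM in the shScramble libraries. Sample 1 of shRcor2-18 and of shScramble were the 2 highest libraries at both later times. The log2 difference between 24h and 0h was -0.98 in shRcor2-18, -1.43 in shRcor2-20 and -0.04 in shScramble. Between 7d and 0h it was -2.45, -2.70 and -1.55. For 7d against 0h, P3h2 fell to 43.2 ± 17.4 CPM (SD, n = 6) at 7d, against 202 ± 68.7 CPM (n = 3) at 0h, with a log2 fold change of -2.16 ± 0.39 (edgeR adjusted p = 0.018, and 0.0574 with no filter on low counts). Between 7d and 24h the value was -1.42 ± 0.34, with an adjusted p of 0.0739 over all rows, 0.0242 within the checked stretches and 0.0149 with the replicate block. The 24h value against 0h was -0.75 ± 0.40 (adjusted p = 0.544), and -1.18 with the replicate block (adjusted p = 0.0312). A gene model on the opposite strand, Gm4524, overlaps 1055 bases or 28.4% of the P3h2 exons and had 92 to 936 counts per library, so reads of the pair may have been shared.

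Col8a1, a chain of the short network-forming type VIII collagen, was the only member called higher in the main fit. It was at 711, 825 and 612 CPM in the 0h libraries of shRcor2-18, shRcor2-20 and shScramble. The lowest, median and highest levels were 882, 1050 and 1120 CPM at 24h, and 1140, 1680 and 1780 CPM at 7d. The 3 ranges did not overlap, and within 7d the shRcor2-18 and shScramble libraries of sample 1 lay below the other 4. Col8a1 rose to 1530 ± 293 CPM (SD, n = 6) at 7d, against 716 ± 107 CPM (n = 3) at 0h, with a log2 fold change of 1.10 ± 0.17 (edgeR adjusted p = 0.00971, and 0.0509 with the replicate block). Between 7d and 24h the value was 0.60 ± 0.13, with an adjusted p of 0.063 over all rows, 0.013 within the checked stretches, 0.0364 with no filter on low counts and 0.0329 without shScramble 7d sample 1. The 24h value against 0h was 0.51 ± 0.17 (adjusted p = 0.265), and 0.16 with all 18 libraries (adjusted p = 0.617). The log2 difference between 7d and 0h was 0.98 in shRcor2-18, 1.06 in shRcor2-20 and 1.22 in shScramble.

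Col4a1 and Col4a2, which encode the 2 chains of the common type IV collagen trimer, are transcribed head to head from starts 21 bases apart. Their promoter windows (RefSeq, GRCm38.p6; chr8:11312777-11313076 on the minus strand and chr8:11312555-11312854 on the plus strand) overlap by 78 bases and are shown because both genes are driven from this one region; capitals mark GGGCGG and the CCAAT box, CCAAT, on either strand.
Col4a1: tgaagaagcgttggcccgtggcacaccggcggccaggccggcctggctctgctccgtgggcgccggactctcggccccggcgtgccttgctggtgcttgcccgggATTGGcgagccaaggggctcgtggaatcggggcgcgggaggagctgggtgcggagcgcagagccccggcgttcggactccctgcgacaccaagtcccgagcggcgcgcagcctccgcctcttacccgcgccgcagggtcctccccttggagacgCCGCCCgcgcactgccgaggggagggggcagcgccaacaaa
Col4a2: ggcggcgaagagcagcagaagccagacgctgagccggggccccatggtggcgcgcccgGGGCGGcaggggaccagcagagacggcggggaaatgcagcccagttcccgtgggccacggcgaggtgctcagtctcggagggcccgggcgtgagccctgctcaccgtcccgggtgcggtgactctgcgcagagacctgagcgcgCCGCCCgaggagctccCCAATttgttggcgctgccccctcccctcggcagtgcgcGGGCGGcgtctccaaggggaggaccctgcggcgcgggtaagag
The Col4a1 window held 1 GGGCGG match and 1 CCAAT match, and the Col4a2 window held 3 and 1. The GGGCGG match of Col4a1 lies where the windows overlap and is the same site as the last of the Col4a2 matches. CCAAT was present in 37.4% of all promoters. GC content was 74.0% and 73.7%. Their exons overlap by 22 bases.

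Col4a1 was at 3290, 3310 and 2670 CPM in the 0h libraries of shRcor2-18, shRcor2-20 and shScramble, with a lowest, median and highest level of 3080, 3430 and 4120 CPM at 24h and of 1970, 2170 and 2770 CPM at 7d. Every 7d library was below every 24h library, while the 0h range overlapped both. For 7d against 24h, Col4a1 fell to 2290 ± 335 CPM (SD, n = 6) at 7d, against 3540 ± 379 CPM (n = 6) at 24h, with a log2 fold change of -0.63 ± 0.10 (edgeR adjusted p = 0.0246). The call was lost under the replicate block (adjusted p = 0.0516) and without any 1 of 8 of the 15 libraries (adjusted p = 0.055 to 0.0771): both shScramble libraries at 24h, shRcor2-18 24h sample 2, both shRcor2-20 libraries at 24h, both shRcor2-18 libraries at 7d, and shRcor2-20 7d sample 2. For 7d against 0h the value was -0.43 ± 0.13, with an adjusted p of 0.0966 over all rows and 0.0156 within the checked stretches, and for 24h against 0h it was 0.20 ± 0.13 (adjusted p = 0.64).

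Col4a2 was at 2230, 2350 and 2160 CPM in the 0h libraries of shRcor2-18, shRcor2-20 and shScramble, with a lowest, median and highest level of 1940, 2320 and 2540 CPM at 24h and of 1570, 1870 and 2250 CPM at 7d. The ranges of all 3 times overlapped. None of its comparisons passed, with log2 fold changes of 0.03 ± 0.13 for 24h against 0h, -0.24 ± 0.13 for 7d against 0h and -0.27 ± 0.11 for 7d against 24h (edgeR adjusted p = 1, 0.356 and 0.24).

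The balance of the 2 chains was then compared as the ratio of Col4a1 to Col4a2, each in CPM per kilobase of exon. It was 1.22 ± 0.11 at 0h (SD, n = 3), 1.37 ± 0.14 at 24h (n = 6) and 1.07 ± 0.11 at 7d (n = 6). Single libraries ranged from 0.94 to 1.23 at 7d and from 1.2 to 1.54 at 24h, so that the ranges met only at their ends. The ratio at 7d was lower than at 24h by 0.36 on the log2 scale (difference -0.36; exact two-sided permutation test, p = 0.00433, or 0.013 after Benjamini-Hochberg adjustment over 3 comparisons; the smallest p possible was 0.00216). The ratio was lower at 7d in all 6 pairs of libraries with the same construct and sample number. An exact paired permutation test, added after seeing the data, gave p = 0.0312, the smallest that 6 pairs allow. After the same adjustment it was 0.0938. With 6 pairs the adjusted value could not go under 0.05, so the paired test could not decide the call. The values for 24h against 0h (0.17, exact permutation p = 0.143, adjusted 0.143) and 7d against 0h (-0.19, exact permutation p = 0.0952, adjusted 0.143) did not pass. A ratio within a library shows that the 2 transcripts changed unequally and not which of them changed.

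**Figure D2:**
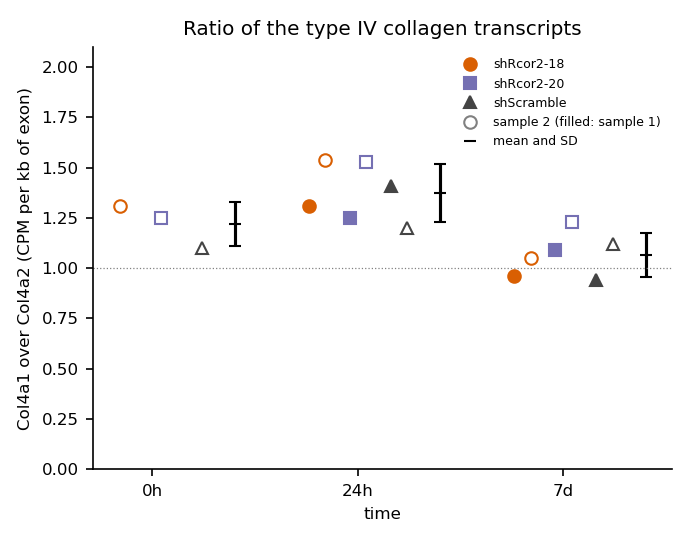
Ratio of Col4a1 to Col4a2 (CPM per kilobase of exon) in each of 15 libraries at 0h, 24h and 7d, with points by construct, filled for sample 1, and with mean and SD beside them. The 7d libraries lie at 0.94 to 1.23 and the 24h libraries at 1.2 to 1.54.

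**Figure D3:**
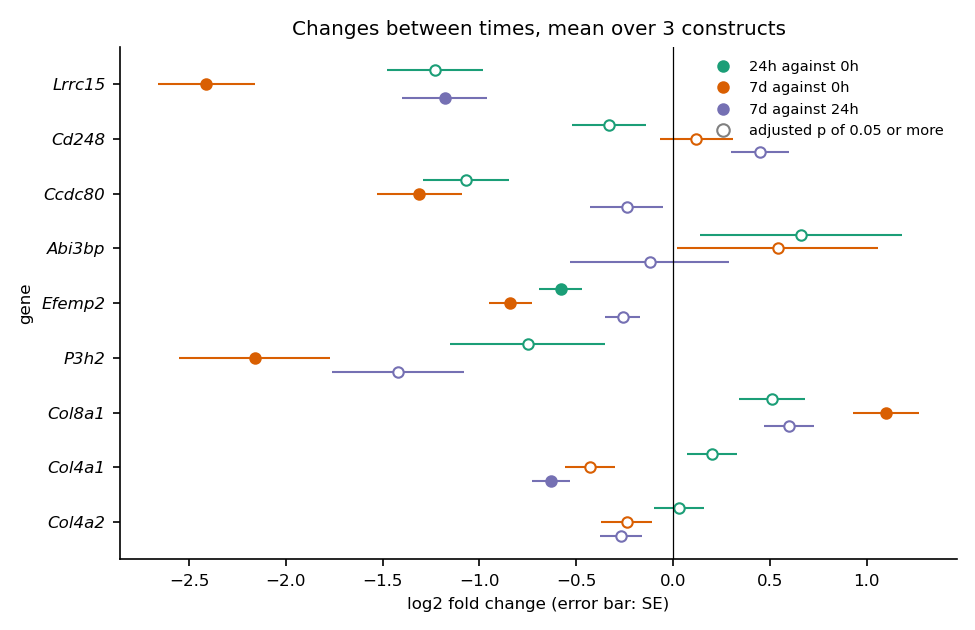
Log2 fold changes of the 9 genes between times, as means over the constructs, with standard errors. Filled points have an edgeR adjusted p under 0.05 over all 12930 rows; for 7d against 0h these are Lrrc15, Ccdc80, Efemp2 and P3h2 on the lower side and Col8a1 on the higher side.

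Other matrix genes could be read only where their rows lay in the checked stretches. Of 43 collagen chains on the list, only the 3 described lay there, and of 33 genes of collagen synthesis only P3h2 did. Among 27 genes of elastic fibres and microfibrils, Ltbp3, a latent TGF-beta binding protein, was the only readable gene besides Efemp2, at 1340 ± 205 CPM at 7d (SD, n = 6), against 1870 ± 138 CPM at 0h (n = 3), a log2 fold change of -0.48 ± 0.18 (edgeR adjusted p = 0.175). Of 77 other matrix glycoproteins and proteoglycans, 5 were readable, and for 7d against 0h 1 of them, Ccdc80, fell and none rose, where 2.49% of all rows fell and 3.27% rose. Gas6, a ligand of the TAM receptors, had a log2 fold change of 1.04 ± 0.26 (adjusted p = 0.0568) and Fstl1, a secreted follistatin-like glycoprotein, of 0.86 ± 0.23 (adjusted p = 0.0658) in that comparison. Both passed within the checked stretches (0.0107 and 0.0154), where 26.7% of rows were called, and with the replicate block (0.0263 and 0.0326). Of 56 matrix proteases and inhibitors, 5 were readable and 4 tested, and for 7d against 0h 1 rose and 1 fell (3.27% and 2.49% of all rows). Adamts1, which cleaves versican and other proteoglycans, rose to 3420 ± 1020 CPM at 7d, against 404 ± 159 CPM at 0h (log2 fold change 3.16 ± 0.28, adjusted p = 0.000902). Adamts5, an aggrecanase, fell to 79.9 ± 7.93 CPM at 7d, against 205 ± 19.6 CPM at 0h (log2 fold change -1.36 ± 0.13, adjusted p = 0.00121). Ctsw, a lysosomal protease, was at 0.604 ± 0.488 CPM at 7d, against 1.69 ± 0.933 CPM at 0h, and Serpind1, heparin cofactor II, at 11.6 ± 18.4 CPM, against 17.9 ± 15.8 CPM (SD, n = 6 and 3), and neither passed. Of 54 stromal surface proteins and matrix receptors, 6 were readable, and 1, Lrrc15, fell for 7d against 0h while none rose, beside the same shares of all rows. Alcam, a cell adhesion molecule, had a value of -1.77 ± 0.48 (adjusted p = 0.0749, within the stretches 0.0162, with the replicate block 0.0275), and Itgb5, the integrin beta 5 chain, of -0.56 ± 0.15 (0.0792, within the stretches 0.0107). For 24h against 0h, where 1.86% of all rows were called, Adamts1 rose (log2 fold change 2.67 ± 0.27, adjusted p = 0.00306) and Adamts5 fell to 106 ± 22.7 CPM at 24h, against 205 ± 19.6 CPM at 0h (-0.97 ± 0.13, adjusted p = 0.00917, and 0.0689 with the replicate block). Cd47 and Heg1 were, for 7d against 0h, at 0.12 ± 0.16 and -0.05 ± 0.16 and did not pass.

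The comparison for which the series was made, hairpins against shScramble, called none of the 9 genes. The constructs are named here as labelled: the Rcor2 row could not be read, each later library lay nearest to a library of another construct (described below), and the labels could not be checked against the counts. In edgeR's test over both later times, 6 of 12930 rows passed (0.0464%). No gene of the set passed there, none had an unadjusted p under 0.05, and none passed with DESeq2 or within the checked stretches. The same held at 24h (0.0155% of rows called) and at 7d (0.0387%), for shRcor2-18 alone (0.0619%, with 0.00773% lower) and shRcor2-20 alone (0.0464%) over both times, for shRcor2-20 against shRcor2-18 (0% of rows, with 478 at an unadjusted p under 0.05), and for the change of the hairpin effect between 24h and 7d (0.0541%). Over both times, the log2 difference between hairpins and shScramble was 0.03 ± 0.10 for Efemp2 (95% interval -0.20 to 0.25), -0.03 ± 0.11 for Col4a2 (-0.28 to 0.23) and 0.06 ± 0.11 for Col4a1 (-0.19 to 0.32). Col8a1, at 0.08 ± 0.14 (-0.24 to 0.41), Cd248, at -0.03 ± 0.16 (-0.40 to 0.34), and Ccdc80, at -0.02 ± 0.20 (-0.48 to 0.43), had wider intervals. For these 6 genes the intervals leave room for differences of up to 0.48 on the log2 scale. Lrrc15 had a difference of -0.26 ± 0.23 (-0.79 to 0.26), P3h2 of -0.23 ± 0.35 (-1.04 to 0.58) and Abi3bp of -0.53 ± 0.43 (-1.51 to 0.46), and these wider intervals leave room for larger differences.

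The largest difference of a single hairpin was that of Abi3bp in shRcor2-20. Its levels were 38.3 and 61.9 CPM at 24h and 77.4 and 58.3 CPM at 7d in shRcor2-20 libraries, against 193 and 55.1 CPM at 24h and 130 and 73.1 CPM at 7d in shScramble libraries. Sample 2 of shScramble lay near the shRcor2-20 libraries, and sample 1 lay far above them. The log2 fold change was -0.94 ± 0.51 (95% interval -2.11 to 0.22; edgeR adjusted p = 1), and -0.84 ± 0.51 for shRcor2-20 against shRcor2-18 (adjusted p = 1). In the single libraries of 0h, Lrrc15 was at 44.4 and 42.5 CPM in shRcor2-18 and shRcor2-20, against 92.0 CPM in shScramble, P3h2 at 245 and 238, against 123 CPM, and Abi3bp at 77.0 and 75.3, against 33.8 CPM. With 1 library per construct used at that time, these differences were not tested. At 24h and 7d the hairpin and shScramble libraries of all 3 genes overlapped.

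**Figure D4:**
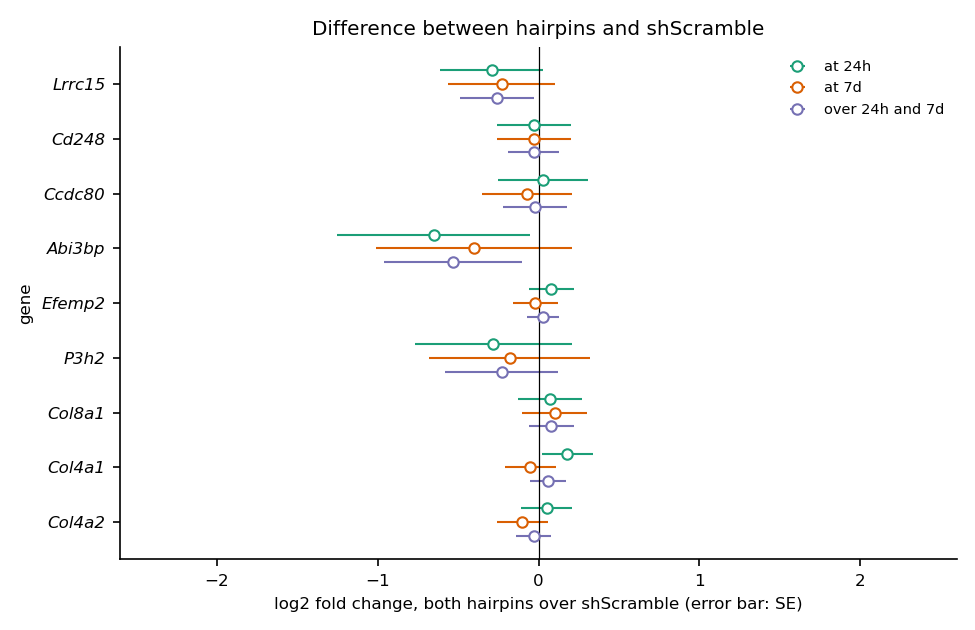
Log2 fold change of both hairpins over shScramble for the 9 genes at 24h, at 7d and over both times, with standard errors. All points are open since none passed the threshold, and Abi3bp has the widest bars, with 0.43 over both times.

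All 12 libraries at 24h and 7d lay closer to a library of another construct than to the second sample of their own. Over 546 rows of the checked stretches, sample 1 of shRcor2-18 and sample 1 of shScramble were each other's nearest library at 24h (root mean square log2 difference 0.289) and at 7d (0.399), and so were sample 2 of shRcor2-18 and of shRcor2-20 (0.325 and 0.386). Sample 1 of shRcor2-20 and sample 2 of shScramble were such a pair at 7d only (0.44). Over the 9 genes, the median absolute log2 difference within these pairings was 0.06 to 0.14 at the 2 times, while between the 2 samples of 1 construct it was 0.20 to 0.62. The 9 genes are among the 546 rows by which the pairings were found, so these medians are not a separate check of them. In sample 1 of shRcor2-18 and of shScramble, Abi3bp and P3h2 were above all 4 other libraries at both times, and Ccdc80, Efemp2, Cd248 and Col4a1 were below all 4 at both times. Col8a1 joined the lower genes at 7d, at 1180 CPM in shRcor2-18 and 1140 CPM in shScramble, against 1670 to 1780 CPM in the other 4 libraries. The replicate block takes sample number within construct into the time comparisons. With it, the log2 fold change for 24h against 0h moved from -0.75 to -1.18 for P3h2 and from 0.66 to 0.08 for Abi3bp. Beyond that, the part of this division in the time changes was not tested, since sample 1 of 0h was not used. With 1 library kept of each closest pair, Lrrc15, Ccdc80, Efemp2 and Col8a1 still passed for 7d against 0h, and P3h2 had a log2 fold change of -2.05 (edgeR adjusted p = 0.102).

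**Figure D5:**
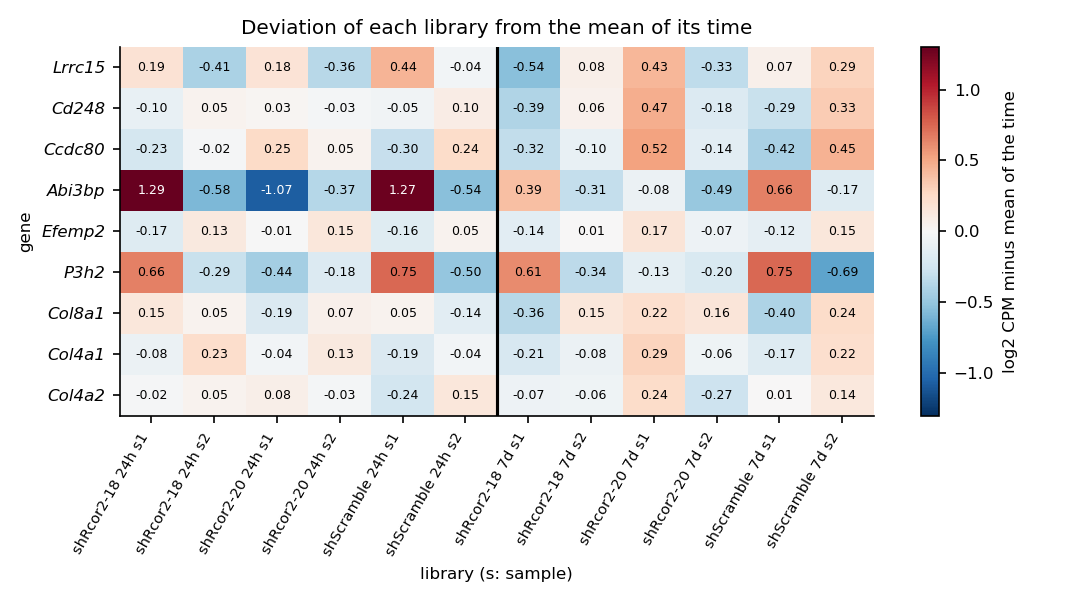
Deviation of each library at 24h and 7d from the mean of its time, in log2 CPM, for the 9 genes (s1 and s2 are the samples of a construct). Sample 1 of shRcor2-18 and of shScramble share high Abi3bp and P3h2 at both times, with deviations of 1.29 and 1.27 for Abi3bp at 24h.

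For each gene, the genes of the stretches with the most similar pattern over the 15 libraries were found by the root mean square difference of centred log2 CPM, among 537 candidates. Efemp2 was closest to Abcc1, a multidrug transporter, at 0.114, and Col4a2 to Hira, a histone chaperone, at 0.117 and Rab1b, a transport GTPase, at 0.118. Cd248 was closest to Emp2 at 0.16, Col8a1 to Mylk, myosin light chain kinase, at 0.19, and Col4a1 to Nde1 at 0.19. The second closest were Atp11a for Efemp2 (0.185), Dvl3 for Cd248 (0.163), Snx29 for Col8a1 (0.201), Ap2m1 for Col4a1 (0.195), Tnk2 for Ccdc80 (0.258), Pkp2 for Lrrc15 (0.539) and Clcf1 for P3h2 (0.578). Mylk averaged 507 CPM at 0h, 630 CPM at 24h and 979 CPM at 7d. Ccdc80 was closest to Runx1, a Runt family transcription factor, at 0.25, which averaged 136, 76.5 and 47.5 CPM at the 3 times. Lrrc15 was closest to Etv5, an ETS family factor, at 0.494, and P3h2 to Pkp2, a desmosomal plakophilin, at 0.54. For Abi3bp, the closest genes, Cdk2ap2 and Trp63, were at 0.423; Cdk2ap2 averaged 128, 137 and 140 CPM at the 3 times, and Trp63 averaged 228, 329 and 420 CPM. Lrrc15 and P3h2, the genes with the widest range over the libraries (3.61 and 3.26 on the log2 scale), had the least similar neighbours by this measure. The measure is not scaled to the range of a gene, so genes with a wide range get larger values more readily.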

How the data were processed

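RNA of 18 MC3T3-E1 libraries was sequenced as 100 bp reads, per the labels' protocols. All libraries stand in 1 deposited table of raw counts by gene, with totals of 2572026 to 9798498 counts per library. FastQC, TopHat2 2.0.9, DESeq and DESeq2 and the build mm9 are named in the submitters' processing notes, and the counting program is not given in the sources used here. Identifiers match GENCODE vM21 on GRCm38 in 97.4% of rows, so the only coordinates printed are those of RefSeq promoter windows on GRCm38.p6; 680 rows have no symbol.

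The members, gene lists and stretch ends were chosen with earlier results of these data known. The stretches hold 837 protein-coding rows on chromosomes 16 (to Cbr3), 19 (to Gpha2) and 8 (to Erich1), and genes written down by hand as expressed in nearly all cells were set against 20 CPM there. Named genes were all members, list genes of the stretches that were tested, and the 2 nearest genes by pattern; marker genes at or near 0, which were not tested, are named as such.

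edgeR 4.0.16 in R 4.3.3 (filterByExpr, TMM, robust dispersions, glmQLFit and glmQLFTest on 9 group means, 6 residual degrees of freedom) was fitted on all rows of 15 libraries, and 12930 rows passed the filter. The lone 0h library of a construct adds nothing to the residual spread, which comes from 24h and 7d. Standard errors are the log2 fold change over the square root of F. CPM use TMM scaling, over 18 libraries where left-out libraries are given; marker ranges and sums are over plain library totals. Exact permutation tests used scipy 1.17.1, and the model code was tested on simulated data. DESeq2 1.42.0, other scalings, filters, row sets, models and leaving out each library were alternatives.

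Deviations of same-numbered libraries of a construct at 24h and 7d correlated at 0.59, 0.52 and 0.44 over 493 rows of the stretches (0.12, 0.04 and 0.07 over 6904 rows of the table) for shRcor2-18, shRcor2-20 and shScramble. Across constructs at 24h, same-numbered libraries correlated at 0.61 for shRcor2-18 with shScramble, 0.44 for shRcor2-18 with shRcor2-20 and -0.17 for shRcor2-20 with shScramble. The main fit did not use this pairing. Same-numbered libraries of 1 construct were paired only in the replicate block and in the paired ratio test, from the values and not the labels. The blocked value is given where it changes a call. The block is nested in construct, so constructs could not be compared with it.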

Additional observations from a re-analysis of the deposited data

Results flagged for a closer look

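The 3 libraries of sample 1 at 0h, which enter no comparison, stood above the 3 used libraries of that time for 4 of the 9 genes, in CPM scaled over all 18 libraries. Lrrc15 had a median of 253 CPM (213 to 287) in the left-out libraries, against 41.9 to 90.8 CPM in the used ones. Cd248 had a median of 1280 CPM (1120 to 1420), against 557 to 645 CPM. Ccdc80 had a median of 2080 CPM (1780 to 3410), against 1500 to 1570 CPM. Col8a1 had a median of 956 CPM (874 to 1500), against 604 to 813 CPM. The other 5 genes overlapped between the 2 sets. How many other rows of the table or of the stretches stood above in this way was not counted. The 4 genes can therefore not be called particular in this. In the left-out libraries the checked stretches took 21.9% to 22.5% of all counts, against 13.4% to 14.5% in the 15 used libraries, and the part of this in the 4 differences was not tested. No library stood apart from the other 5 of its time by Dixon's test in any of 18 groups, each 1 gene at 24h or 7d. That test looks for 1 library alone and cannot flag 2 that lie apart together. For Abi3bp at 24h, sample 1 of shRcor2-18 and of shScramble were at 196 and 193 CPM (scaled over 15 libraries). The other 4 libraries were at 38.3 to 61.9 CPM.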

How the results depend on the processing

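Counts of calls moved with the tool, the rows tested and the libraries kept, while directions mostly did not. For 7d against 0h, 745 of 12930 rows were called, 1427 with DESeq2 and 432 with the replicate block. With only the checked stretches tested, 146 of 546 rows were called (166 with DESeq2). With 1 library kept of each closest pair it was 286 of 12277, and leaving out 1 library gave 447 to 762. The 5 genes of the set that passed did so without any 1 of the 15 libraries. For 24h against 0h, 240 rows were called, and 582 with DESeq2, 32 in the stretches (48 with DESeq2), 56 with the replicate block, 85 with 1 library of each pair and 139 to 231 without 1 library. For 7d against 24h, 302 rows were called, and 1100 with DESeq2, 91 in the stretches (126 with DESeq2), 38 with all 18 libraries, 753 with additive construct and time, 169 with the replicate block, 44 with 1 library of each pair and 120 to 307 without 1 library. Of the 9 genes, 1 passed for 24h against 0h; it was 2 with no filter, 3 with DESeq2, in the stretches, with all 18 libraries or with additive terms, 4 with DESeq2 in the stretches, 0 with a block shared by constructs or with 1 library of each pair, and 0 to 1 without 1 library. For 7d against 24h, 2 passed; it was 5 with DESeq2, 6 in the stretches and 7 with DESeq2 there, 4 with additive terms, 1 with the replicate block, 0 with all 18 libraries or 1 library of each pair, and 0 to 2 without 1 library.

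With all 18 libraries the sign turned for Abi3bp (-0.04 for 24h and -0.14 for 7d, both against 0h), Col4a2 (-0.01 for 24h against 0h) and Cd248 (-0.48 for 7d against 0h), none of which passed. For 7d against 24h, Abi3bp was at 0.03 with the replicate block and 0.01 with 1 library of each pair, and at -0.34 to 0.28 without 1 library. Without 1 library, Col4a2 and Col4a1 for 24h against 0h were at -0.03 to 0.09 and 0.10 to 0.25, Cd248 for 7d against 0h at 0.00 to 0.22 and Ccdc80 for 7d against 24h at -0.40 to -0.11. The log2 ratio of Col4a1 to Col4a2 was at 0.10 to 0.22 for 24h against 0h, -0.27 to -0.14 for 7d against 0h and -0.41 to -0.33 for 7d against 24h, with no call changed. Paired over 7d and 24h it was -0.36, where the adjusted test could not pass with 6 pairs. For hairpins against shScramble over both times, Efemp2 was at -0.00 with library size alone or no filter, and Cd248 at 0.02 with additive terms. Leaving out 1 library there gave -0.38 to -0.13 for Lrrc15, -0.85 to 0.06 for Abi3bp, -0.50 to 0.22 for P3h2, -0.21 to 0.23 for Ccdc80, -0.17 to 0.14 for Cd248, -0.06 to 0.26 for Col8a1, -0.03 to 0.17 for Col4a1, -0.12 to 0.07 for Col4a2 and -0.04 to 0.10 for Efemp2, none past the threshold. The causes were not tested.

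Rows called between constructs were few under every setting. For hairpins against shScramble there were 2 at 24h (30 with DESeq2, 4 with no filter, 2 to 12 without 1 library), 5 at 7d (30 with DESeq2, 5 to 15) and 6 over both times (26 with DESeq2, 4 to 14). There were 8 for shRcor2-18 (40 with DESeq2, 14 with no filter, 4 to 9), 6 for shRcor2-20 (31 with DESeq2, 3 to 11), 0 for shRcor2-20 against shRcor2-18 (27 with DESeq2, 6 with no filter, 0 to 2) and 7 for the change of the hairpin effect (35 with DESeq2, 1 with the replicate block, 0 with the block in the stretches, 4 to 11). All of these were 0 in the stretches, also with DESeq2, and with all 18 libraries; with additive terms they were 0 where such a model has the comparison.

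The replicate block of sample number within construct called 56, 432 and 169 rows in the 3 time comparisons. With the stretches alone, the block called 63, 182 and 165 of 546 rows. This setting and DESeq2 in the stretches were added after seeing the data. The block within the stretches called 5 of the 9 genes for 24h against 0h, beside the 63 rows. For 7d against 24h it called 8 of the 9, beside the 165 rows. Among the 9 genes, the block changed no call beyond those named in the report. A block nested in construct gives no comparison between constructs, the additive model has no change of the hairpin effect, and keeping 1 library of each pair was run for the times only. The 3 libraries at 0h limit every comparison with that time.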
